A study of Rattus norvegicus with 18 samples.

Results

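The response to damaging light was read in retinas that had first received photobiomodulation (PBM), a treatment in which low-intensity red light is shone on the animal. The members were the 3 arrays of PBM followed by light damage (PBMLD) and the 3 arrays of PBM alone, chosen by their labels, which makes 6 of the 18 arrays of the series. Each array measured the RNA of 1 retina from a different adult albino Sprague Dawley rat, aged 80 to 120 days and raised in cyclic light of 5 lux. Rats of both groups received 670 nm light for 3 min a day on 5 days. In the PBM group the retina was taken 24 h after the last treatment. In the PBMLD group white light of 1000 lux began on the last treatment day and lasted 24 h, and the retina was taken at its end, so that both groups had the same interval after PBM. The comparison of these groups gives the light response with PBM held constant. The study describes dark adaptation overnight and single housing for the light exposure, and names neither for PBM alone. Their part in the response cannot be told apart from that of the light. The other groups were untreated controls, light damage alone (LD), saffron fed at 1 mg/kg a day for 3 weeks, and saffron followed by light damage (SafLD), with 3 arrays each. LD minus control and SafLD minus saffron gave the 2 other light responses, and no array was used in more than 1 of the 3. The short source labels of the LD arrays give 100 lux where their descriptions give 1000 lux. The study used animals of both sexes in each group, and the sex behind an array was not given.

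Bright light bleaches and overloads the photoreceptors of the albino retina, and some of them die. Müller cells, the glia that span the retina, answer with the intermediate filament protein GFAP and with signalling through gp130, the shared receptor chain of LIF and related cytokines, which activates the transcription factor STAT3. Stressed cells also slow protein synthesis and make more of the transcription factor ATF4, which switches on genes for amino acid synthesis, amino acid uptake and tRNA charging. PBM is studied as a way to make photoreceptors more resistant to such damage.

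The values were log2 intensities of 29214 probe sets, called entities here because 13581 of them carried no gene symbol in the platform table. They ran from 1.37 to 14, with array medians between 6.12 and 6.19. Arrays give no read counts, so the number of arrays limits the precision. The rod genes Gnat1 and Sag lay between 12.99 and 13.77 in all 6 arrays and the Müller cell gene Rlbp1 between 10.9 and 11.9, while the microglial genes Aif1 and Cx3cr1 lay between 5.28 and 6.73. PBMLD 1 stood apart from the other 5 arrays in the mean levels of lens and pigment epithelium genes. Over 20 lens genes its mean level was 9.91, against 8.94 and 9.00 in the other PBMLD arrays and 8.47 to 8.87 in the PBM arrays. Over 13 pigment epithelium genes it was 5.36, against 6.03 to 7.02 in the 5 other arrays. Its level of Enpp2, a secreted lysophospholipase rich in pigment epithelium, was 5.43 against 9.19 to 9.60 in the 5 other arrays. That of Tyrp1, a pigment cell enzyme, was 4.16 against 6.09 to 7.39. Not every such gene set PBMLD 1 apart. Its levels of the lens genes Cryaa and Crybb2 and the pigment epithelium gene Rpe65 lay within the range of the other arrays. Best1 and Ttr, also of that epithelium, were lowest in PBMLD 1, at 4.69 and 5.46 against at least 4.85 and 6.06. Over all entities PBMLD 1 did not stand apart in this way. The array nearest to it was PBM 1 (distance 57.7), and that nearest to PBMLD 3 was PBM 2 (57.8). PBMLD 2 was nearest to an array of the saffron group (71.9) and received the lowest array weight of the 18, at 0.267 against 0.588 for PBMLD 1. Whole retinas were measured, so that fewer cells of a type and less RNA per cell cannot be told apart.

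Light exposure after PBM was followed by higher levels of 31 entities and lower levels of 12, at an adjusted p below 0.05 over all entities and a change of more than 2-fold. These were 0.106% and 0.0411% of the entities tested. The increases ran from 2.01-fold to 6.81-fold and the decreases from 2.01-fold to 4.56-fold. The largest increase was that of Atf3, a stress-induced transcription factor, and the largest decrease that of Esrrb, a nuclear receptor of rods. In each of the 43 the PBM and PBMLD arrays did not overlap, and over all entities every PBMLD array lay above every PBM array in 7.17% and below in 6.3%. Whichever of the 6 arrays was left out, 16 of the 31 increases and 6 of the 12 decreases were still called. Without PBMLD 1 the calls numbered 61 and 34, and 40 of the 43 were among them. With no fold limit, 108 of all 29214 entities were then higher and 80 lower, against 60 and 36 with all arrays. Without PBM 3 they numbered 19 and 7. At an unadjusted p below 0.05, 1313 entities were higher and 1059 were lower.

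Genes that ATF4 is known to control made up the list with the most members past the adjusted p limit. Of 33 measured genes of ATF4 and the amino acid response, 8 rose and none fell at an adjusted p below 0.05, a limit that 0.205% of all entities passed upwards and 0.123% downwards. Asns, Mthfd2, Gdf15, Trib3, Slc7a1, Slc1a4, Aldh18a1 and Slc38a2 were the 8. The median difference of the 33 genes was 0.41 on the log2 scale, against 0.00 over all entities. The other 25 did not pass.

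Asns makes asparagine. Its log2 levels were 8.24, 8.18 and 8.13 in the PBM arrays and 10.17, 9.85 and 10.20 in the PBMLD arrays. The groups lay far apart and the rise of 1.89 ± 0.13 (SE, n = 3 against 3) had an adjusted p of 1.15e-06, the smallest of the 43. Mthfd2, a mitochondrial enzyme of the folate cycle, stood at 6.78, 6.57 and 6.59 in PBM and at 8.68, 8.95 and 8.41 in PBMLD. It rose by 2.04 ± 0.17, and its second probe set by 1.44 ± 0.14. Gdf15, a secreted stress cytokine, went from 5.66, 5.62 and 5.57 to 6.97, 7.02 and 6.79. This was a rise of 1.31 ± 0.16 (adjusted p = 0.00105). Trib3, a pseudokinase that feeds back on ATF4, went from 5.98, 6.02 and 6.1 to 7.22, 7.34 and 7.05, and Slc7a1, a carrier of cationic amino acids, from 6.81, 6.96 and 7.08 to 8.29, 7.91 and 8.07. Their rises were 1.17 ± 0.17 and 1.14 ± 0.16. These 5 genes also passed the 2-fold limit, and all 5 were called whichever of the 6 arrays was left out.

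The amino acid carriers Slc1a4 and Slc38a2 and the proline pathway enzyme Aldh18a1 rose by less than 2-fold, by 0.92 ± 0.19, 0.84 ± 0.16 and 0.90 ± 0.15. The message for ATF4 itself differed by 0.29 (adjusted p = 0.6) and that for Ddit3, a death-associated factor of the same pathway, by 0.59 (adjusted p = 0.481). Atf4 is regulated largely at translation, which arrays do not measure. Among 19 aminoacyl-tRNA synthetases, the enzymes that load tRNAs, 3 rose and none fell. Tars1, for threonine, went from 8.27, 8.36 and 8.28 to 9.23, 9.49 and 9.34, a rise of 1.05 ± 0.12 (adjusted p = 3.47e-04). Cars1, for cysteine, rose by 0.97 ± 0.16 and Gars1, for glycine, by 0.65 ± 0.10, while Iars1, for isoleucine, was 0.87 higher with an adjusted p of 0.0516. The median of the 19 was 0.30.

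Promoter sequence was available in RefSeq (build GRCr8) for 9 of the 11 genes of these lists that rose, as the 250 bases before the start site and the 50 after it. The motif searched was TGATGNAA (TTNCATCA on the other strand), the composite element bound by ATF4 with a C/EBP partner. It was present in 5 of the 9 windows, those of Cars1, Slc1a4, Slc7a1, Tars1 and Trib3, and in 3.98% of all 33469 windows of this length. The windows of Trib3 (chr3:161275484-161275783, minus strand), Slc7a1 (chr12:11664238-11664537, plus strand) and Tars1 (chr2:62114753-62115052, minus strand) are shown because these genes were called and hold the motif close to the start, beginning 21, 30 and 27 bases before it. Capitals mark the motif.
Trib3: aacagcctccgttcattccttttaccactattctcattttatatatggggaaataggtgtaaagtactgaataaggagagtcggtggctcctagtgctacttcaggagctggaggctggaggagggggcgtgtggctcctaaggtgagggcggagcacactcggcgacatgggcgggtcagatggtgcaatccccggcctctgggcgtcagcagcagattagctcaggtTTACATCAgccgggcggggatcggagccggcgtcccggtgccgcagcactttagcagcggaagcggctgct
Slc7a1: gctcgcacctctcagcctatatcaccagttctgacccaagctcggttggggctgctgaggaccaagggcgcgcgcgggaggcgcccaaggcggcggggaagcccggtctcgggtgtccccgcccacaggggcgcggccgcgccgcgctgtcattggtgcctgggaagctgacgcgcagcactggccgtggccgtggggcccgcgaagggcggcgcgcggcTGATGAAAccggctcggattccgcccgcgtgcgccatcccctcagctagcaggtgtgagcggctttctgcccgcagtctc
Tars1: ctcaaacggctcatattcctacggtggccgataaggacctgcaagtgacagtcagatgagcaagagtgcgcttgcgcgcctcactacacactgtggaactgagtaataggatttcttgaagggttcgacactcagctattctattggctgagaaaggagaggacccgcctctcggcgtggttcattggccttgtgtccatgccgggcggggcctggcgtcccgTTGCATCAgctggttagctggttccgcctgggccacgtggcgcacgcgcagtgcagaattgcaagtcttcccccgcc
The other motifs searched, on both strands, were the AP-1 element TGANTCA, the cyclic AMP element TGACGTCA and the interferon element TTTCNNTTT, each in none of the 9 windows and in 7.33%, 1.83% and 11.8% of all windows, and the metal element TGCNCNC, in 5 of the 9 and in 49.6% of all windows. The STAT element TTCNNNGAA was in none of the 9. None of the matches shown overlapped another of these motifs. A match is a description of the letters, and binding of ATF4 was not measured.

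**Figure D1:**
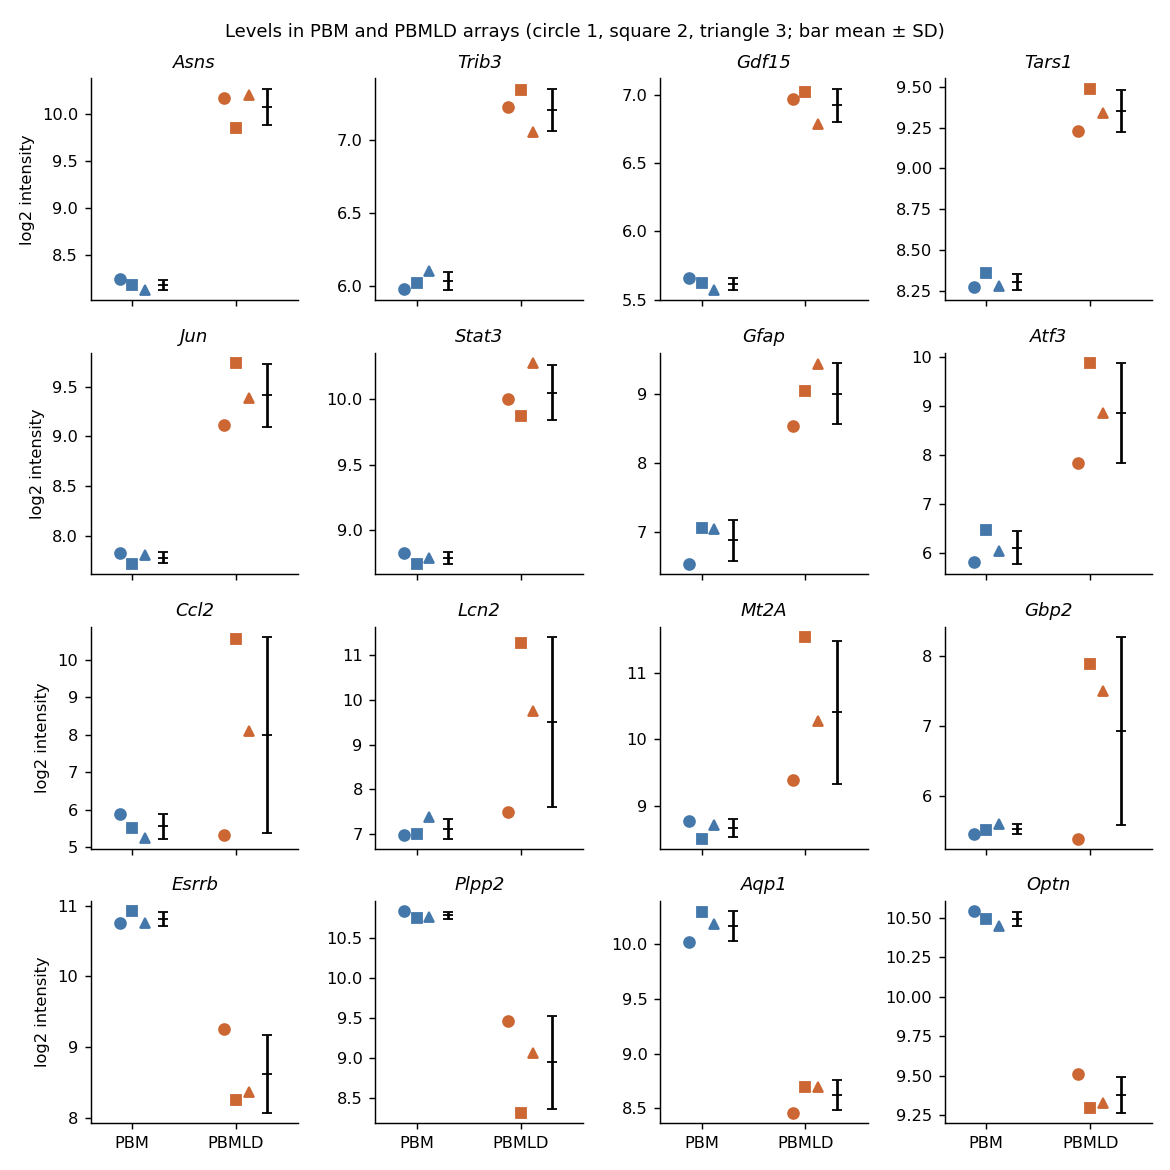
Log2 intensity of 16 genes in the 3 PBM arrays (blue) and the 3 PBMLD arrays (orange), each panel with its own axis, with the array number shown by the symbol and the mean ± SD beside the points. The arrays do not overlap for Asns, Trib3, Gdf15, Tars1, Jun, Stat3, Gfap and Atf3 (higher in PBMLD) or for Esrrb, Plpp2, Aqp1 and Optn (lower), whereas the circle of PBMLD 1 lies at or near the PBM arrays for Ccl2, Lcn2 and Gbp2 and below both other PBMLD arrays for Mt2A.

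Immediate early genes are transcribed within minutes of a stimulus. Of 24 measured, Atf3, Zfp36 and Jun rose and none fell, with a median of 0.24. Atf3 stood at 5.80, 6.47 and 6.03 in PBM and at 7.84, 9.89 and 8.87 in PBMLD. Its lowest PBMLD array was well above its highest PBM array, and it rose by 2.77 ± 0.37 (adjusted p = 0.00213). Jun, a subunit of AP-1, went from 7.82, 7.71 and 7.80 to 9.11, 9.74 and 9.39, a rise of 1.63 ± 0.17 (adjusted p = 1.42e-04). Zfp36 encodes tristetraprolin, which destabilises cytokine messages. It went from 6.09, 5.99 and 5.82 to 6.68, 9.34 and 8.14, so that the PBMLD arrays were spread over a wider range than the rise of 2.09 ± 0.42 itself (adjusted p = 0.042), and this call was lost when any of the 5 arrays other than PBMLD 1 was left out. Fosl1 and Junb, further AP-1 subunits, were 1.32 and 1.23 higher with adjusted p of 0.132 and 0.101, and Egr1 was 1.06 higher (adjusted p = 0.105). Without PBMLD 1, 6 of the 24 passed upwards, beside 108 of all 29214 entities. PBMLD 1 had the smallest mean shift of this list, so that leaving it out was bound to raise the mean difference.

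The response included genes of gp130 signalling and of the glial reaction. Cish, Socs3 and Stat3 rose among 18 gp130 genes, and Gfap, Socs3 and Stat3 among 21 genes of the glial reaction, with no decrease in either list. The list medians were 0.23 for gp130, which became 0.38 without PBMLD 1, and 1.00 for the glial genes. In 13 of the 21 glial genes every PBMLD array lay above every PBM array, against 7.17% of all entities. Gfap stood at 6.53, 7.06 and 7.04 in PBM and at 8.54, 9.05 and 9.43 in PBMLD. The groups were more than 1 log2 unit apart, and the rise of 2.13 ± 0.27 (4.38-fold, adjusted p = 0.00105) was called whichever array was left out. Stat3 went from 8.83, 8.74 and 8.79 to 10, 9.87 and 10.28, a rise of 1.26 ± 0.18 (adjusted p = 0.00249).

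The feedback inhibitors of cytokine receptors varied more between animals. Socs3 went from 5.54, 4.93 and 5.65 to 6.34, 7.71 and 7.32 (1.75 ± 0.34, adjusted p = 0.0379). Cish went from 6.67, 6.60 and 6.81 to 7.67, 10.54 and 9.22 (2.45 ± 0.50, adjusted p = 0.0429). For both, PBMLD 1 was the lowest light-exposed array, and the call held only when PBMLD 1 was the array left out. The receptor chains differed by 0.73 for Il6st, which is gp130, and by 1.63 for Osmr, with adjusted p of 0.192 and 0.0906. The ligand gene Lif stood at 4.90, 5.11 and 5.48 in PBM and at 5.32, 8.78 and 6.59 in PBMLD (1.74 ± 0.57, adjusted p = 0.342). Without PBMLD 1, 5 of the 18 gp130 genes and 8 of the 21 glial genes passed upwards, beside 108 of all 29214 entities. Both lists had their smallest mean shift in that array, so that its removal was bound to raise their mean differences.

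The promoter window of Cish (chr8:116850719-116851018, plus strand) is shown because it held 4 copies of TTCNNNGAA, the core letters that STAT proteins bind, beginning 241, 230, 136 and 119 bases before the start. That motif was present in 8.87% of all windows and, of the 4 genes from the cytokine lists that rose and had a window, in Cish and Irf9. TGATGNAA and the AP-1, cyclic AMP and interferon elements were in none of these 4 windows, and the metal element was in that of Cish. Capitals mark the motif.
Cish: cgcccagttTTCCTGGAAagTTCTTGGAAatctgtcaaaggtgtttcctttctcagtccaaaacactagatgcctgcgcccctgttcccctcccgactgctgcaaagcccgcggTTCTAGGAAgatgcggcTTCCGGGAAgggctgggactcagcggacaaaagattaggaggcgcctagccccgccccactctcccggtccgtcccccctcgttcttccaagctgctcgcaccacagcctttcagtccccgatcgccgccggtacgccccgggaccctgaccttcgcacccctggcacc

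Inflammatory genes were high in PBMLD 2 and PBMLD 3 and stood near the PBM level in PBMLD 1. Of 25 chemokines and cytokines none passed in either direction, although the median difference was 0.42. The chemokine Ccl2, which attracts monocytes, had levels of 5.90, 5.52 and 5.26 in PBM and of 5.34, 10.56 and 8.10 in PBMLD. PBMLD 1 thus lay within the range of the PBM arrays, and the difference of 2.44 ± 0.84 had an adjusted p of 0.373. Cxcl10, an interferon-induced attractant of T cells, stood at 4.85, 4.99 and 5.02 in PBM and at 4.71, 9.02 and 7.82 in PBMLD. Ccl3 stood at 4.59, 4.82 and 4.65 and at 4.77, 8.28 and 6.70. Without PBMLD 1, Ccl2 (3.77, adjusted p = 0.00759), Ccl3 (2.80, adjusted p = 0.00675) and Cxcl10 (3.46, adjusted p = 0.0478) passed. It was the lowest PBMLD array for these genes, so that leaving it out raised their differences by construction. These passes are therefore no separate evidence of a response. PBMLD 2, the highest array for them, was kept in that fit.

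The same array was low for the interferon genes. Of 28 measured, Irf9 alone rose, from 7.10, 6.92 and 7.27 to 8.06, 8.54 and 8.71 (1.34 ± 0.23, adjusted p = 0.0132). Irf9 is the DNA-binding subunit of the complex that interferon receptors activate, and its arrays did not overlap. The mean shift of the 28 genes from the PBM mean was -0.18 in PBMLD 1, 0.81 in PBMLD 2 and 0.77 in PBMLD 3. Gbp2, a guanylate-binding protein of interferon-stimulated cells, stood at 5.46, 5.51 and 5.60 in PBM and at 5.39, 7.89 and 7.51 in PBMLD (adjusted p = 0.519), and the antiviral gene Rsad2 was 1.53 higher (adjusted p = 0.551). Of 16 genes of NF-kB signalling, Tnip2, an inhibitor of the pathway, rose by 1.01 ± 0.18. That call was lost when any array other than PBMLD 3 was left out. Tnfrsf1a, Icam1 and Nfkb2 were 1.16, 0.92 and 0.82 higher (adjusted p = 0.276, 0.297 and 0.476). Without PBMLD 1, Tnfrsf1a (1.73, adjusted p = 0.00435) and Nfkb2 (1.31, adjusted p = 0.0176) were among 4 of the 16 that passed. In that fit 108 of all 29214 entities passed upwards. The NF-kB genes too had their smallest mean shift in PBMLD 1, at 0.12 against 0.81 and 0.73 in PBMLD 2 and PBMLD 3.

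The spread between the light-exposed arrays differed between lists. The mean shift of the ATF4 genes was 0.36, 0.39 and 0.47 in PBMLD 1, 2 and 3, and that of the tRNA synthetases was 0.49, 0.10 and 0.45. The glial genes shifted by 0.49, 1.54 and 1.24, the immediate early genes by 0.25, 0.93 and 0.46, and the chemokines by -0.11, 1.32 and 0.67. PBMLD 1 was thus level with the other arrays for the ATF4 genes and lowest for the glial, immediate early and chemokine genes. The lens genes shifted by 1.19, 0.22 and 0.29 and the pigment epithelium genes by -0.90, 0.76 and 0.19, with no member of either list passing. The part of these shifts in the other lists was not tested beyond a fit with the lens level as a covariate, which called 45 increases and 10 decreases.

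**Figure D2:**
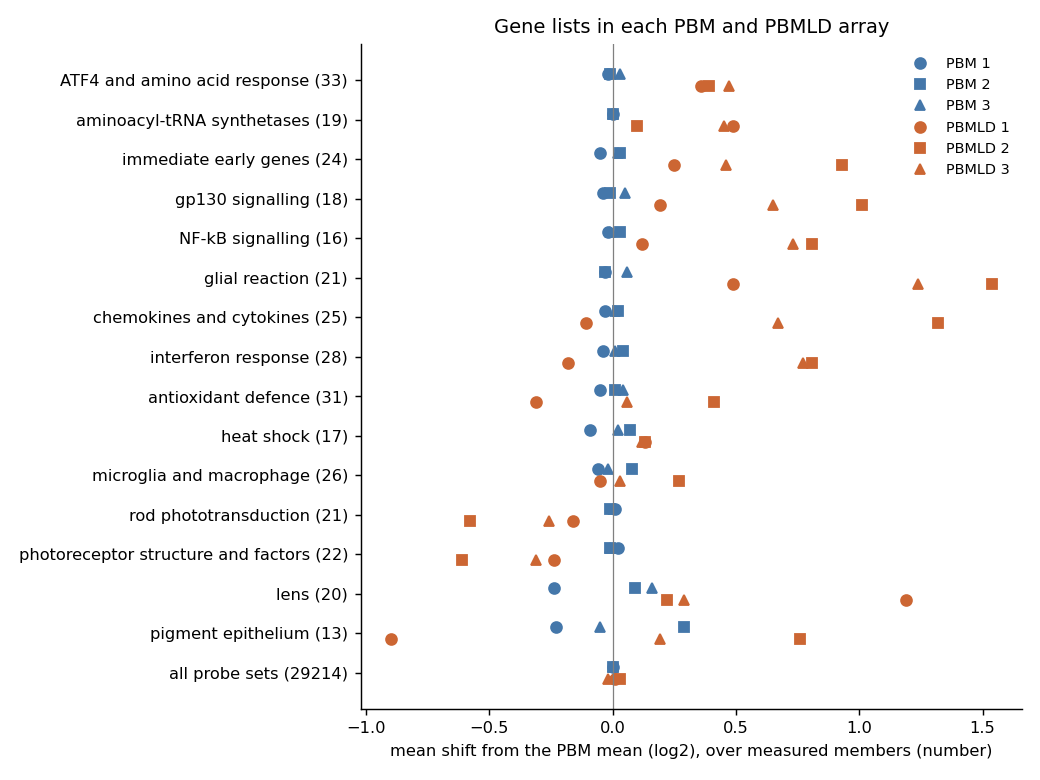
Mean shift in log2 intensity from the mean of the PBM arrays over the measured members of 15 gene lists and over all probe sets (rows), for each PBM array (blue) and each PBMLD array (orange). The 3 PBMLD arrays lie together for the ATF4 genes (0.36 to 0.47) and apart for the chemokines (-0.11 to 1.32), the interferon genes (-0.18 to 0.81), the lens (0.22 to 1.19) and the pigment epithelium (-0.90 to 0.76).

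Metal-binding and antioxidant genes did not pass. Among 31 genes of antioxidant defence none was called, and the median was -0.01. The metallothionein Mt2A had levels of 8.78, 8.52 and 8.73 in PBM and of 9.40, 11.53 and 10.28 in PBMLD. All light-exposed arrays were above all PBM arrays, yet they spread over more than 2 log2 units and the difference of 1.73 ± 0.40 had an adjusted p of 0.0903. Mt1 differed by 1.49 (adjusted p = 0.0982). Both passed without PBMLD 1, which was the lowest PBMLD array for Mt2A. Hmox1, which degrades haem, was 0.73 higher (adjusted p = 0.676), and Sod3, the extracellular superoxide dismutase, was 4.96 in PBMLD 1 and 7.16 to 7.41 in the 5 other arrays. The iron-binding acute-phase protein Lcn2 stood at 6.98, 7.0 and 7.37 in PBM and at 7.49, 11.27 and 9.76 in PBMLD (2.39 ± 0.65, adjusted p = 0.186). Serpina3n, a protease inhibitor of reactive glia, was 2.05 higher (adjusted p = 0.206). The small heat shock protein Hspb1, which the lens also makes, stood at 5.47, 6.02 and 5.67 in PBM and at 8.10, 7.21 and 6.62 in PBMLD. The difference of 1.59 ± 0.49 had an adjusted p of 0.277, and no other of the 17 heat shock genes passed either. Hspb1 was highest in PBMLD 1, the array with the highest lens level. It was higher in PBMLD 2 than in PBMLD 3, whose lens shifts were 0.22 and 0.29. The part of lens tissue in its level was not tested.

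None of 21 rod phototransduction genes passed, with a median of -0.29. In 11 of them every PBMLD array lay below every PBM array, against 6.3% of all entities. Gnat1, the rod transducin subunit, stood at 13.72, 13.74 and 13.77 in PBM and at 13.41, 12.99 and 13.43 in PBMLD, so that the groups did not overlap and differed by -0.47 (adjusted p = 0.234). The rod arrestin Sag was 0.20 higher (adjusted p = 0.608). Rgs9bp, the anchor of the transducin-deactivating complex, and the channel subunit Cngb1 differed by -0.93 and -0.69 (adjusted p = 0.421 and 0.251).

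Of 22 genes of photoreceptor structure and transcription, Esrrb and Plpp2 fell and Fscn2 rose. Esrrb had levels of 10.75, 10.92 and 10.76 in PBM and of 9.26, 8.25 and 8.36 in PBMLD, and fell by 2.19 ± 0.33 (adjusted p = 0.00545). Plpp2, a phospholipid phosphatase, went from 10.83, 10.75 and 10.76 to 9.46, 8.31 and 9.06, a change of -1.84 ± 0.25 (adjusted p = 0.00242). Both were called whichever array was left out, and PBMLD 1 was the least changed array for each. Fscn2, an actin-bundling protein of the outer segment, went from 9.93, 10.04 and 9.96 to 10.84, 10.74 and 10.72 and rose by 0.79 ± 0.14 (adjusted p = 0.0181). Ppef1, Reep6 and Nrl, the rod transcription factor, differed by -1.23, -1.01 and -0.72 (adjusted p = 0.0652, 0.105 and 0.415). Among 12 cone genes the cone phosphodiesterase Pde6c rose by 0.66 ± 0.13 (adjusted p = 0.0411), with a list median of -0.05, and did not pass without PBMLD 1 (adjusted p = 0.0847).

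Of the other decreases, Aqp1, Lamb3 and Optn belonged to a list. Aqp1, a water channel counted here with the 15 Müller cell genes and also present in photoreceptors, stood at 10.02, 10.29 and 10.18 in PBM and at 8.46, 8.70 and 8.70 in PBMLD. The arrays of each group were close together, and the change was -1.54 ± 0.20 (adjusted p = 0.00114). No other Müller cell gene of that list passed. Optn, an autophagy receptor mutated in some forms of glaucoma, went from 10.54, 10.49 and 10.45 to 9.51, 9.30 and 9.33 (-1.11 ± 0.12, adjusted p = 2.76e-04). Pde8a, a phosphodiesterase of cyclic AMP, went from 9.39, 9.35 and 9.40 to 8.37, 7.96 and 7.83 (-1.33 ± 0.19, adjusted p = 0.00249). Cerk, a ceramide kinase, fell by 1.42 on the log2 scale. These 4 were called whichever array was left out. The remaining named decreases were those of Lamb3, a laminin chain (-1.10), the bicarbonate transporter Slc4a7 (-1.08), the caspase inhibitor Xiap (-1.04) and Slc66a2 (-1.01), each of which was lost on leaving out at least 1 array.

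Increases outside the lists included Lad1, a basement membrane protein, which went from 5.18, 6.40 and 5.70 to 7.74, 8.58 and 8.16 (2.40 ± 0.38) and rose by 1.4 on a second probe set. Rps6ka2, a kinase of the RSK family, went from 9.08, 8.97 and 9.00 to 10.48, 10.32 and 10.68, a rise of 1.48 ± 0.14 (adjusted p = 6.67e-05). Litaf, an endosomal membrane protein, rose by 1.72 ± 0.25. Kremen1, a receptor for Dickkopf inhibitors of Wnt signalling, rose by 1.56, and Stkld1 by 1.32. Slc25a30, a mitochondrial carrier, went from 7.58, 7.36 and 7.45 to 8.88, 8.41 and 8.98 (1.30 ± 0.25, adjusted p = 0.0302). Mest, an imprinted gene, rose by 1.26, Rbm41 by 1.16, the aryl hydrocarbon receptor gene Ahr by 1.12 and the acute-phase transcription factor Cebpd by 1.01. The other 4 increases were on probe sets without a symbol in the platform table. The study names 1 of these RGD1310572. It went from 6.94, 6.98 and 7.28 to 8.62, 8.15 and 8.96 (1.51 ± 0.23, adjusted p = 0.0061). Probe sets 10768826 and 10800323 remained unnamed here and rose by 1.06 and 1.04. The unnamed decreases were probe set 10729256 (-1.13) and probe set 10701170 (-1.47), the latter at levels between 1.98 and 3.94, the dim end of the scale.

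Most lists of other cell types and processes held no call. None of the measured genes passed for microglia and macrophages (26), bipolar cells (15), amacrine and horizontal cells (16), ganglion cells (13), endothelium and pericytes (15), blood (8), complement (14) or apoptosis and DNA damage (22). The same held for cell division (18), sterol synthesis (14), the circadian clock (17), ribosomal proteins of the cytosol (49) and the mitochondrial respiratory chain, split into 34 subunits of NADH dehydrogenase and 29 of ATP synthase or cytochrome oxidase, and the medians of these lists lay between -0.08 and 0.16. Among microglial genes P2ry12, a receptor of resting microglia, differed by -0.49 (adjusted p = 0.626) and the endotoxin co-receptor Cd14 by 0.66 (adjusted p = 0.537). Of 25 matrix genes Chsy1, which builds chondroitin sulphate, went from 9.73, 9.63 and 9.59 to 10.58, 10.83 and 10.53. It rose by 1.00 ± 0.13 (adjusted p = 0.0016), just under the 2-fold limit, and Lamb3 fell. Timp1 and Mmp3, an inhibitor and an enzyme of matrix breakdown, were 1.22 and 1.26 higher (adjusted p = 0.643 and 0.68).

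A further list held 14 genes taken from the RT-PCR part of the study, where 1 gene appears both as Smarcd1 and as Smarcad1, and both spellings were kept because it is not known here which was meant. They had been chosen on these samples, so that their direction is not independent evidence. On the arrays Gfap, Socs3 and Stat3 rose and Optn fell with light after PBM. The growth factor Fgf2, which photoreceptors and Müller cells make under stress, stood at 5.95, 6.27 and 6.20 in PBM and at 6.91, 8.30 and 7.73 in PBMLD. Its groups did not overlap, with a difference of 1.5 ± 0.37 and an adjusted p of 0.125. Edn2, an endothelin released by stressed photoreceptors, was 0.67 higher (adjusted p = 0.251) and Crot 0.33 higher (adjusted p = 0.536). Agt, the precursor of angiotensin, and Smarcd1, a chromatin remodelling subunit, differed by -0.33 and -0.47 (adjusted p = 0.592 and 0.382), and Smarcad1 by 0.17. Fabp5 (0.18) and Gpx3 (-0.15) had the opposite sign without PBMLD 1. Ccl2 and Hmox1 are described above.

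The light response of PBM-treated retinas ran the same way as that of untreated retinas for nearly all called entities. LD minus control called 155 entities (0.531%) and SafLD minus saffron 241 (0.825%). Of the 43 called after PBM, 33 were also called without pretreatment, which is 76.7% of the 43 and 21.3% of the 155. With saffron the number shared was 28, which is 65.1% and 11.6% of the lists, and 27 were called in all 3 responses. The 31 increases had the same sign in both other responses, and their median was 1.34 with PBM, 1.70 without pretreatment and 1.61 with saffron. Of the 12 decreases 11 had the same sign in each, and the median was -1.23, -0.85 and -0.745. The 43 were chosen on PBMLD minus PBM, so their values in that comparison lean large. For none of them did the response differ from that without PBM (adjusted p of 0.999 throughout). Over all entities Pearson's r of the differences was 0.409 with the LD response and 0.176 with the SafLD response. These are correlations across entities that share hybridisation and normalisation, and they are given as a description.

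Several genes ended at levels close to those of LD. The group means of Asns were 8.23 in control, 8.18 in PBM, 10.14 in LD and 10.07 in PBMLD. Its light response with PBM exceeded that without by -0.02, with a 95% interval of -0.40 to 0.37. For Jun the means were 7.64, 7.78, 9.70 and 9.41, and for Trib3 5.91, 6.03, 7.34 and 7.21, with differences between the responses of -0.43 (-0.93 to 0.08) and -0.26 (-0.75 to 0.24). Esrrb stood at 10.43, 10.81, 8.09 and 8.62 and its responses differed by 0.15 (-0.84 to 1.14). For Aqp1 the difference was -0.25 (-0.83 to 0.33). None of these intervals excludes 0, and their widths show what 3 arrays a group could resolve.

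Several glial, cytokine and interferon genes had smaller differences with PBM than without it, but none passed the test of that difference after adjustment. Gfap stood at 6.62 in control and 9.90 in LD, and its response with PBM was smaller by 1.14 on the log2 scale (-1.94 to -0.35 with PBM minus without, unadjusted p = 0.00753). Stat3 (-0.76), Socs3 (-1.26), Irf9 (-0.99) and Slc25a30 (-1.45) had intervals that lay below 0 as well. So did Ccl2 (-2.82, with an interval of -5.34 to -0.31), Gbp2 (-2.34) and Hmox1 (-1.68). Adjusted over all entities, each of these differences had a p of 0.999. No member of any of the lists passed for the difference of the responses. Its median was -0.88 over the glial genes, -0.66 over the interferon genes and -0.60 over the NF-kB genes. It was -0.53 over the chemokines and -0.07 over the ATF4 genes. Lists of other tissue gave values of similar size, -0.65 over the lens genes and -0.58 over the pigment epithelium genes, against 0.02 over all entities. In the interferon list 27 of 28 genes had a lower difference with PBM, in the lens list 19 of 20 and in the pigment epithelium list 12 of 13. Over all entities the number was 13688 of 29214. The values of the lists moved with PBMLD 1. Without that array the median of PBMLD minus PBM went from 0.37 to 0.63 over the interferon genes and from 0.42 to 0.69 over the chemokines. It went from 0.23 to 0.38 over the gp130 genes. Over the NF-kB genes it went from 0.60 to 0.80 and over the glial genes from 1.00 to 1.19. In the same order, the medians of LD minus control were 1.1, 0.92, 0.38, 1.18 and 1.97 with all 3 LD arrays kept. Among these LD 1 was low, with a mean interferon shift of 0.35 against 1.74 and 1.82 in LD 2 and LD 3. Without LD 1, 7 entities were called for the difference of the responses, against 2 with all arrays.

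The entities called in LD minus control were read in the PBM-treated retinas as well. They were chosen by the LD arrays, so their LD values lean high. Of the 136 that rose in LD, 134 were also higher in PBMLD than in PBM, 28 were called, and 131 had a smaller difference. Their median was 1.62 in LD minus control and 0.89 in PBMLD minus PBM. By array the median shift from the PBM mean was 0.44 in PBMLD 1, 1.18 in PBMLD 2 and 0.98 in PBMLD 3, so that the array with the smallest shift was the one that stood apart in lens and pigment cell genes. Lens genes were also high in LD 1 and LD 3, and within the control range in LD 2. Their mean level was 10.81 in LD 1, 8.61 in LD 2 and 10.77 in LD 3 against 8.55 to 9.12 in control, and their median difference was 0.87. Among the LD arrays the interferon genes shifted by 0.35, 1.74 and 1.82 from the control mean and the glial genes by 1.28, 2.11 and 2.33, so that LD 1 and LD 3, both high in lens genes, lay at opposite ends. The part of the lens genes in these shifts was not tested. The 19 that fell in LD were all lower after PBM too, with medians of -1.15 and -0.81 and shifts of -0.58, -1.07 and -0.82. For 1 of these 155 entities the responses differed at an adjusted p below 0.05, and for 65 at an unadjusted p below 0.05.

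**Figure D3:**
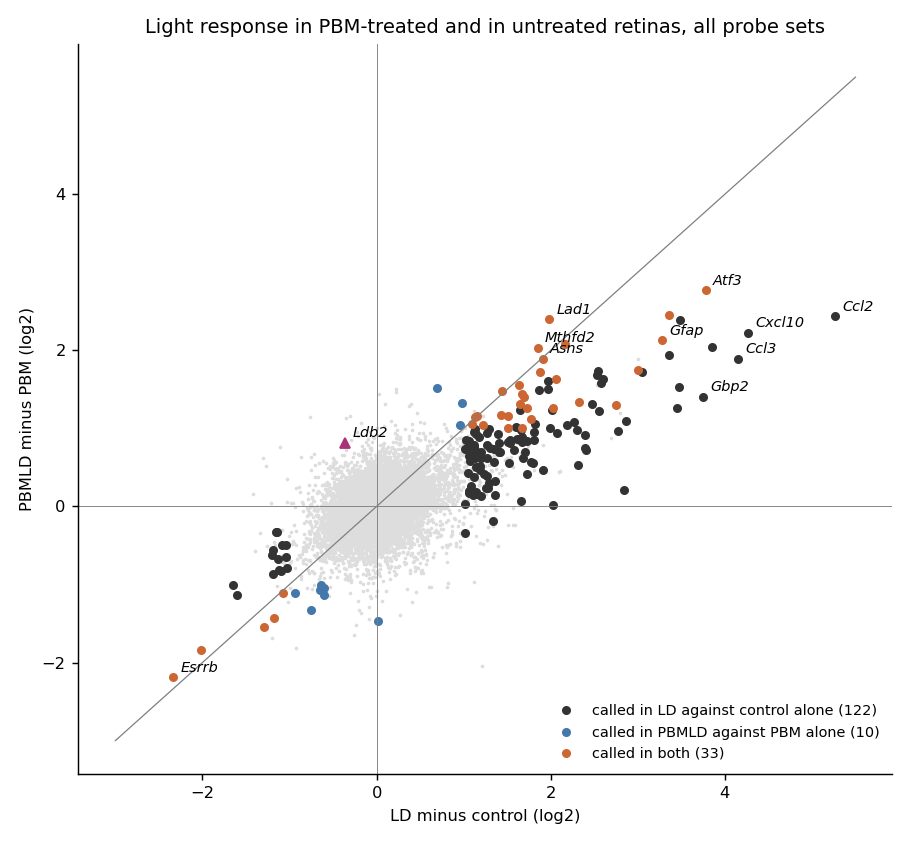
Difference in log2 intensity with light in untreated retinas (horizontal axis, LD minus control) against that in PBM-treated retinas (vertical axis, PBMLD minus PBM), with each point a probe set, colours for the calls and the diagonal for equal differences. The entities called in LD lie mostly between the horizontal axis and the diagonal (median 0.89 against 1.62 for the increases). Asns and the labelled Mthfd2 probe set lie on or just above the diagonal. The second Mthfd2 probe set (1.44 with PBM against 1.67 without) lies below it. Ldb2 (triangle) lies in the upper left.

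Calls in PBMLD minus PBM that were made in neither other response numbered 9. They were RGD1310572, Slc66a2, Xiap, Slc4a7, Optn, Pde8a and the probe sets 10800323, 10729256 and 10701170. For none of them did the response differ from that without PBM, with adjusted p of 0.999 throughout, so that a call in 1 comparison and not in another is no measured difference here. RGD1310572 rose by 1.51 with PBM and was 0.70 and 0.55 higher in LD and SafLD. Pde8a stood at 8.84 in control, 9.38 in PBM, 8.08 in LD and 8.05 in PBMLD, and Xiap at 9.31, 9.74, 8.70 and 8.70. For both the light-exposed means were close and the PBM mean was above the control mean, a difference that was not tested here.

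The test of the difference between responses called 2 entities (0.00685%) against the response without PBM, and 37 (0.127%) against the response with saffron. Ldb2, which encodes an adaptor of LIM-domain transcription factors, was among both. Its levels were 8.57, 8.53 and 8.47 in control and 7.61, 7.53 and 7.27 in PBM. They were 8.15, 8.15 and 8.20 in LD and 8.25, 8.30 and 8.32 in PBMLD. The PBM arrays were thus the low ones and all light-exposed arrays were near each other. It rose by 0.82 ± 0.11 with light after PBM (adjusted p = 0.00242) and differed by -0.36 without it, so that the responses differed by 1.18 (0.84 to 1.51, adjusted p = 0.0303). On leaving out each of the 12 arrays in turn that call held 2 times, with adjusted p between 0.0308 and 0.146, while the difference stayed between 1.08 and 1.25. It was lost with the compared groups fitted alone, with cyclic loess, with the replicate number as a block and with the lens level as a covariate. Against saffron the difference was 1.16 (adjusted p = 0.00368) and held in all 12.

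The other entity called against the response without PBM was probe set 10782065, which was 0.34 lower with light after PBM (adjusted p = 0.527) and rose by 1.01 without it. The responses differed by -1.35 ± 0.20 (adjusted p = 0.0418), and the call held in 1 of 12 arrays left out. Against saffron, Gpat3, an enzyme of triglyceride synthesis, and the defensin Defb10 were called. Gpat3 stood at 5.51, 5.20 and 5.28 in PBM and at 5.02, 4.76 and 4.70 in PBMLD, and differed by -0.50 (adjusted p = 0.0925) where saffron-fed rats gave 0.56. Defb10 stood at 4.60, 4.47 and 4.78 and at 4.11, 4.10 and 4.30, a difference of -0.44 against 0.66 with saffron. Both are dim. The other 34 entities called against saffron had no symbol, and 27 of them belonged to a numbered run of 59 probe sets with 39 distinct sets of values. In that run no member passed in PBMLD minus PBM, where the median was -0.16, and 49 were called in SafLD minus saffron, where the median was -1.59. The run stood at a median of 8.85 in PBM and 8.61 in PBMLD, against 10.73 in control. Chst3, a chondroitin sulphotransferase, gave the opposite order of levels, at 5.33, 5.07 and 5.27 in control, 6.96, 7.01 and 7.21 in PBM, and 7.34, 7.44 and 7.37 in PBMLD. It was 0.32 higher with light after PBM (adjusted p = 0.765), and the difference of its responses of -1.05 had an adjusted p of 0.999.

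**Figure D4:**
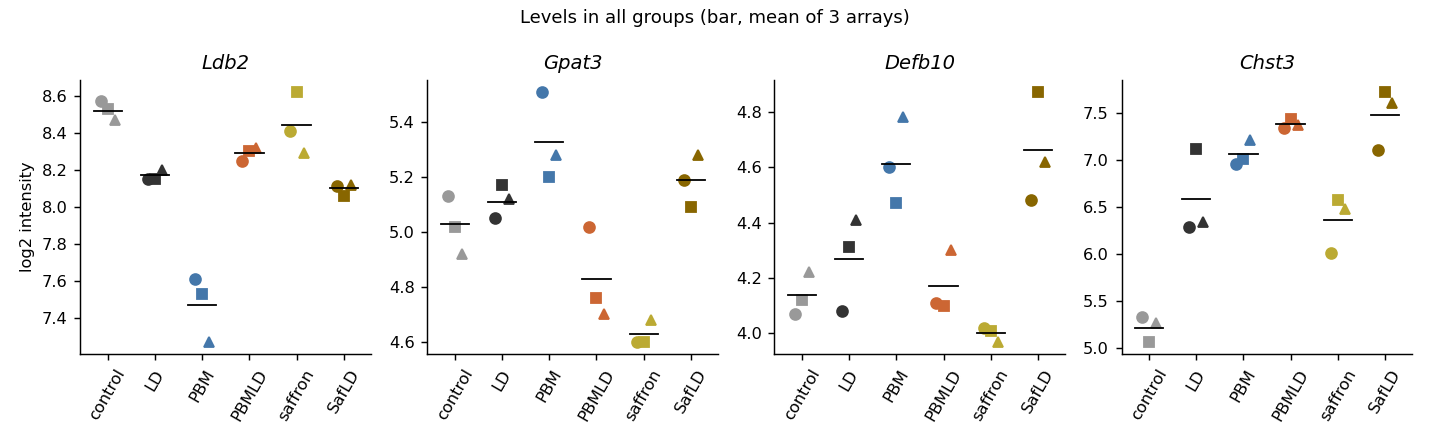
Log2 intensity of Ldb2, Gpat3, Defb10 and Chst3 in all 18 arrays by group, with the group mean as a bar and a separate axis for each gene. Ldb2 is lowest in the PBM arrays (7.27 to 7.61) and between 8.06 and 8.32 in all light-exposed arrays, while Chst3 is lowest in the control arrays and already high in the PBM arrays.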

How the data were processed

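The authors ran RMA, that is background correction, quantile normalisation and median polish, on Affymetrix rat Gene 1.0 ST arrays in Affymetrix Expression Console 1.1.2800.19935 and deposited the resulting log2 intensities. The genome build was not given in the sources used here. RMA pulls arrays to one distribution, so a shift shared by all entities cannot be seen. The values were used as deposited. Symbols came from the platform table (15310 probe sets with 1 symbol, 323 with several, 13581 with none), and 527 genes had several probe sets, of which the brightest stood for the gene in a list. A model of 6 group means was fitted to all 18 arrays with limma 3.58.1 in R 4.3.3 (12 residual and 5.05 prior degrees of freedom). Every p is two-sided and adjusted by Benjamini-Hochberg over 29214 probe sets unless called unadjusted. Called means an adjusted p below 0.05 and more than 2-fold, and lists were counted at an adjusted p below 0.05. An exact permutation test of 3 against 3 arrays cannot go below p = 0.1 and was not used. The fit was tested on simulated data. The members, the 33 gene lists (642 genes measured) and the tests were chosen with earlier results of these data known. Named genes were the 20 largest named calls in each direction, the 5 largest unnamed ones, up to 5 genes with the largest difference per list, the RT-PCR genes and the calls of the difference between responses. Other genes were named after their values were seen. Alternatives were other normalisations, weights, filters, a replicate block, a lens covariate, the methods' t-test and leaving out each array. Arrays of a group came from different animals. After ± stands the SE of a difference, with 3 arrays a group. The result of 1 called probe set is not reported here.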

Additional observations from a re-analysis of the deposited data

Results flagged for a closer look

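Ldb2 gave a light response with PBM that exceeded the response without PBM by 1.18 on the log2 scale and the response with saffron by 1.16, by the test of the difference itself. Probe set 10782065, which has no symbol, gave -1.35 against the response without PBM. Against the response with saffron, Gpat3 gave -1.06 and Defb10 -1.10, and 34 entities without a symbol also differed. On leaving out each of 12 arrays in turn, the call of Ldb2 held 2 times against the response without PBM and 12 times against saffron, that of the probe set held 1 time, and those of Gpat3 and Defb10 held 10 times each. Both calls against the response without PBM were lost with the compared groups fitted alone, with cyclic loess, with the replicate block and with the lens covariate.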

How the results depend on the processing

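In PBMLD minus PBM the 31 increases became 50 with array weights, 15 with the compared groups fitted alone and 60 with no fold limit, and the 12 decreases became 5 with the compared groups alone and 36 with no fold limit. By the methods' t-test 46 and 21 passed at the unadjusted threshold and 0 after Benjamini-Hochberg in every comparison. Leaving out 1 array gave 19 to 61 increases and 7 to 34 decreases, the highest without PBMLD 1 and the lowest without PBM 3 (7 decreases also without PBMLD 2). LD minus control gave 325 calls with no fold limit and 91 to 293 with an array left out (91 without LD 3, 293 without LD 1). SafLD minus saffron gave 364 with array weights, 612 with no fold limit and 148 to 331 with an array left out, 148 without SafLD 3. The 2 entities whose response differed from that without PBM became 0 with the compared groups alone, with cyclic loess, with the replicate block and with the lens covariate, 66 by the unadjusted t-test and 0 to 7 with an array left out. The 37 against saffron became 179 with array weights, 318 by the unadjusted t-test and 31 to 228 with an array left out, 228 without PBMLD 1. Of the 43 calls, 18 held with the compared groups alone and 39 to 43 under the other normalisations, weights and the covariate.

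The deviations of same-numbered PBM and PBMLD arrays from their group means had correlations of 0.232, 0.0669 and 0.0247. Those of differently numbered arrays ran from -0.172 to 0.119. Whether same-numbered arrays shared a source of variation was not tested. A fit with the replicate block called 34 increases and 9 decreases and kept 40 of the 43.

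With an array left out, Gpx3 ranged from -0.33 to 0.12 and Tyrp1 from -1.24 to 0.33, both highest without PBMLD 1. Fabp5 ranged from -0.10 (without PBMLD 1) to 0.39 and was -0.40 with the lens covariate. Ttr ranged from -0.29 (without PBMLD 2) to 1.48. None of these passed in any fit. The cause was not tested.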

Other observations

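Without PBMLD 1, 55 entities were called that were not called with it. They included the copper carrier Slc31a2, the hexokinase Hk2, the lactate carrier Slc16a1, the podoplanin gene Pdpn, the oxidative stress regulator Nfe2l2 and the cholesterol hydroxylase Ch25h, beside Mt1, Mt2A, Lif, Osmr, Lcn2, Fgf2 and the chemokines described above. These calls rest on 2 light-exposed arrays and were found by leaving out an array that stood apart in lens and pigment cell genes.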
